A study of Mus musculus with 32 samples.

Results

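Tendon assembloids were compared between their compartments: the hydrogel around the core explant against the core explant itself, in assembloids whose core came from mice labelled as Il6 knock-out (KO) and whose hydrogel held fibroblasts. The samples were taken by their labels, 6 hydrogel libraries and 4 core libraries, 10 of the 32 samples of the series. The series used assembloids of mouse tail tendon cores in a collagen-1 hydrogel to ask how IL-6 from the core affects cells around it. The other groups were hydrogels around WT cores (n = 6) and cores labelled WT beside fibroblasts, macrophages or cell-free hydrogels and cores labelled KO beside cell-free hydrogels (n = 4 each).

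The hydrogel samples are labelled as progenitors isolated from wildtype Achilles tendon, with the genotype B6.129S2-Il6tm1Kopf/J Il-6+/+, and sat around a knock-out core. Each was a pool of 2 hydrogels and held fibroblasts pooled from 6 mice and expanded on plastic, together with cells that had left the embedded core of a single mouse. The core samples are labelled as tail tendon fascicle, mixed tenocytes, B6.129S2-Il6tm1Kopf/J Il-6-/-, and each was a pool of explants of 1 mouse. The paper counted seeded ScxGFP fibroblasts within the core area of similar assembloids. These cores may therefore also have held seeded wildtype cells, in a share that is not known. Male and female adult mice were used. The clamped constructs of both groups shared DMEM/F12 medium with fetal bovine serum, antibiotics and L-ascorbic acid until day 7, and the study's methods add macrophage colony-stimulating factor. Compartment, anatomical origin, genotype, passage in culture, mixing of mice and surrounding matrix therefore change together between hydrogel and core, and their effects cannot be told apart. In these bulk samples, fewer cells of a type and less RNA per cell cannot be told apart either.

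Tendon consists of a load-bearing core of collagen fascicles, kept by tenocytes, and of a loose surrounding tissue, the paratenon, with fibroblasts, vessels, nerves and immune cells. After damage, fibroblasts of the surrounding tissue divide, migrate and lay down a provisional matrix that proteases later remodel. Cells from different body positions keep distinct patterns of HOX genes, a family of transcription factors set along the body axes in the embryo.

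Library totals were 26.1 to 50.2 M counts in hydrogels (median 32.8 M) and 22 to 34.8 M in cores (median 25.4 M). Fewer genes had a count in hydrogels, 18044 to 18585, than in cores, 21701 to 23093. Olfactory and vomeronasal receptor genes, of which the files hold 1509, summed to 8.62 to 17.5 CPM (counts relative to the library size) in hydrogels and 89.6 to 200 CPM in cores. The gene models Gm10800, Gm10801 and Gm21738 summed to 0.458 to 9.91 CPM in hydrogels and 1590 to 6630 CPM in cores. Correlations of log2 CPM were 0.917 to 0.992 among hydrogels, 0.983 to 0.99 among cores and 0.907 to 0.939 between them. Hydrogel library 5 stood apart in several groups of genes, and results that rest on it are given with and without it. By a code in the titles, hydrogels 2, 3, 4 and 6 belong with cores 1, 2, 3 and 4. Both members of a pair deviated from their group means together, with correlations of 0.42, 0.23, 0.24 and 0.32 across genes. Hydrogels 1 and 5 have no core of their code. Fits with the title code as a block therefore take the compartment difference from the 4 pairs. Like fits without hydrogel 5, they give that library no weight, so the 2 kinds of fit are not separate checks.

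Counts of Il6, which the KO allele targets, were present in each of the 10 libraries. Il6 had 15.7, 5.79, 14.5, 9.63, 5.44 and 38.1 CPM in hydrogels 1 to 6, whose seeded cells were wildtype, against 10.2, 14.9, 16.8 and 36 CPM in cores 1 to 4 (log2 fold change -0.39, SE 0.55, edgeR adjusted p = 0.579, exact permutation p = 0.362, two-sided). The groups overlapped fully. Scaled by library totals alone, cores labelled KO beside cell-free hydrogels, without seeded cells, had 6.84, 9.67, 7.04 and 20 CPM. Cores labelled KO beside fibroblasts had 10.6, 15.5, 18.4 and 35.1 CPM on that scale. WT cores had 5.93, 12.3, 4.88 and 8.91 CPM beside fibroblasts, and 7.59, 2.08, 12.5 and 3.8 CPM beside cell-free hydrogels. Counts per gene do not show whether the reads lie in the part of Il6 that the allele disrupts, so they do not check the label, and the cores are called cores labelled KO.

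Once genes with too few counts were set aside, 16084 remained and were tested with edgeR's quasi-likelihood test. Calls needed a log2 fold change of hydrogel over core beyond 0.5 and a Benjamini-Hochberg adjusted p under 0.05, and p-values measure the spread between these samples. Called were 6688 genes, 41.6% of those tested, with 2734 higher in hydrogel (17%) and 3954 lower (24.6%). The median log2 fold change of all genes was -0.0015. Differences beyond 2 on the log2 scale were held by 339 genes higher in hydrogel and by 1108 genes lower in hydrogel.

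Many of the genes that were lower in hydrogel had low levels. A mean under 1 CPM in both compartments was found for 85 of the genes called higher and 710 of those called lower, while a mean of at least 5 CPM in either compartment was found for 2311 and 1929. The 12 genes with a log2 fold change under -8 were all gene models without a proper name and summed to 4.73 CPM in hydrogels and 4380 CPM in cores. Of 23 receptor genes for smell and pheromones that could be tested, 20 were lower and 1 was higher in hydrogel. These transcripts, foreign to tendon, moved with the low genes that were lower in hydrogel, and their part in that count was not tested. With genes of at least 5 CPM in a compartment, a filter chosen after seeing the data, 1912 genes were called higher and 2158 lower.

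**Figure D1:**
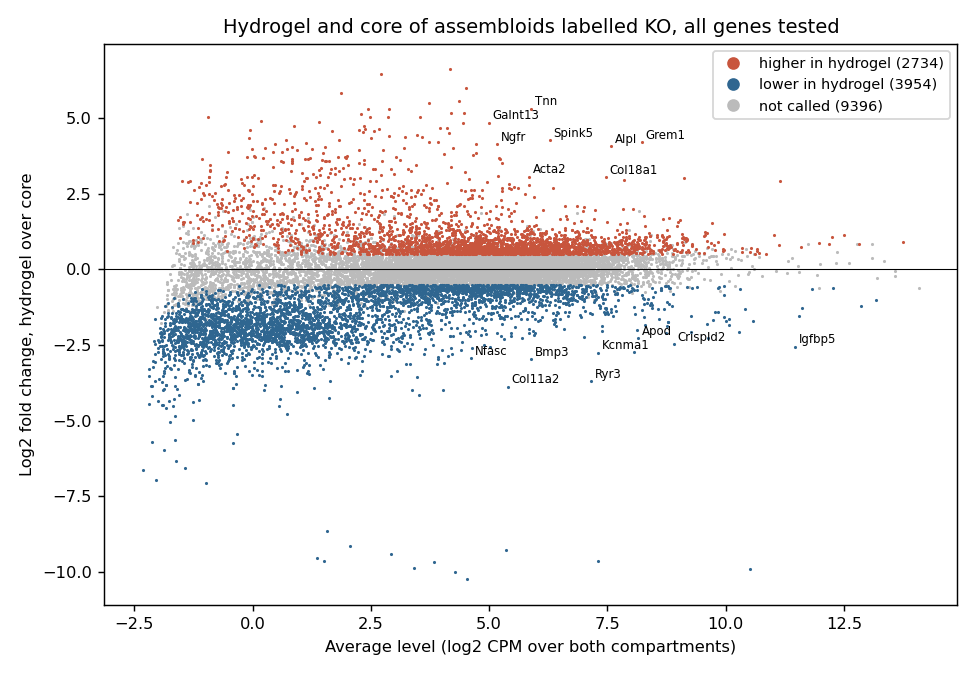
Average level (log2 CPM, horizontal axis) and log2 fold change of hydrogel over core (vertical axis) of the 16084 genes tested, 1 point per gene, coloured by call. Called genes spread furthest upward among genes of middle level (Grem1 and Alpl are above 4), a dense band of low genes lies below 0, and the isolated points under -8 are the 12 gene models named in the text.

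The genes with the largest differences were taken among called genes with a mean of at least 50 CPM in the higher compartment and without overlap between libraries, 12 in each direction. Hydrogel values are given below as the lowest, the median and the highest of the 6 libraries, core values for cores 1 to 4, and SE is the standard error of the log2 fold change. Without overlap, the exact permutation test of 6 against 4 libraries gave the smallest two-sided p it can, 0.00952, for each of these genes. Over all genes tested, 44.1% had groups that did not overlap.

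Matrix and mineralization genes stood among the 12 genes that were higher in hydrogel. Tnn, the matrix glycoprotein tenascin-N, had 38.3, 88.2 and 189 CPM in hydrogels, against 1.21, 2.41, 1.51 and 4.87 CPM in cores (log2 fold change 5.31, SE 0.59, edgeR adjusted p = 6.05e-05). Alpl, the alkaline phosphatase of mineralizing tissues, had 198, 318 and 422 CPM in hydrogels, against 10.5, 19.2, 17.1 and 25.7 CPM in cores (log2 fold change 4.08, SE 0.32, edgeR adjusted p = 1.38e-05). Even the lowest hydrogel was several-fold above the highest core for both genes. Col18a1, a basement membrane collagen, had 193, 269 and 387 CPM in hydrogels, against 36.3, 30, 31.8 and 33.7 CPM in cores (log2 fold change 3.05, SE 0.21, edgeR adjusted p = 9e-06). Has2, a synthase of hyaluronan, had 38.9, 58.7 and 84.4 CPM in hydrogels, against 5.85, 4.82, 6.16 and 4.22 CPM in cores (log2 fold change 3.53, SE 0.23, edgeR adjusted p = 9e-06). Both were even within each compartment. Galnt13, an enzyme that starts sugar chains on secreted proteins, had 18.1, 51 and 92.8 CPM in hydrogels, against 0.386, 1.36, 1.8 and 3.9 CPM in cores (log2 fold change 4.85, and 5.55 without core 4, the highest core).

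Secreted regulators, a receptor of nerve growth factors and a contractile gene made up most of the others. Grem1, a secreted inhibitor of BMPs, had 226, 466 and 734 CPM in hydrogels, against 3.01, 34, 23 and 44.4 CPM in cores (log2 fold change 4.21, SE 0.68, edgeR adjusted p = 0.000482). Rspo2, an enhancer of Wnt signals, had 13.3, 57.6 and 109 CPM in hydrogels, against 3.47, 6.27, 10.4 and 5.97 CPM in cores (log2 fold change 3.10, SE 0.58, edgeR adjusted p = 0.00114). Core 1 was the lowest library for both. Spink5, an inhibitor of serine proteases known from skin, had 55.6, 144 and 191 CPM in hydrogels, against 3.06, 8.85, 6.39 and 7.8 CPM in cores (log2 fold change 4.28, SE 0.46, edgeR adjusted p = 4.95e-05). Ngfr, the low-affinity receptor for neurotrophins, had 33.5, 48.2 and 92 CPM in hydrogels, against 3.36, 2.72, 2.18 and 4.87 CPM in cores (log2 fold change 4.14, SE 0.39, edgeR adjusted p = 2.76e-05). Acta2, the smooth muscle actin of contractile fibroblasts, had 30.9, 84.6 and 142 CPM in hydrogels, against 7.97, 11.8, 10.2 and 12.1 CPM in cores (log2 fold change 3.07, SE 0.38, edgeR adjusted p = 0.000108). Sytl2, a gene of vesicle transport, was higher by 3.65 on the log2 scale. Penk, the precursor of enkephalins, had 9.46, 39.5 and 185 CPM in hydrogels, against 1.41, 4.16, 6.36 and 6.2 CPM in cores, and its log2 fold change of 3.69 was 2.89 without hydrogel 5, the highest library.

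The 12 genes with the largest difference in the other direction included channels, a kinase, matrix genes and secreted proteins. Igfbp5, which binds insulin-like growth factors, had 470, 768 and 1660 CPM in hydrogels, against 7900, 4790, 4580 and 5380 CPM in cores (log2 fold change -2.57, SE 0.36, edgeR adjusted p = 0.000194). Mylk, the kinase of the myosin light chain, had 45.2, 78.1 and 141 CPM in hydrogels, against 547, 532, 550 and 538 CPM in cores (log2 fold change -2.72, SE 0.25, edgeR adjusted p = 2.54e-05). Kcnma1, a potassium channel opened by calcium, had 27.6, 41.1 and 86 CPM in hydrogels, against 337, 299, 287 and 376 CPM in cores (log2 fold change -2.76, SE 0.30, edgeR adjusted p = 5.08e-05). For each of them the highest hydrogel was well below the lowest core. Ryr3, a channel that releases calcium inside cells, had 2.29, 14.1 and 91.8 CPM in hydrogels, against 405, 232, 363 and 284 CPM in cores, with a log2 fold change of -3.70 that was -4.81 without hydrogel 5. Col11a2, a chain of a minor fibrillar collagen, had 0.984, 4.05 and 21.4 CPM in hydrogels, against 97.6, 101, 68.9 and 112 CPM in cores, and its log2 fold change of -3.87 was -4.75 without the same library. Hydrogel 5 was thus the hydrogel nearest to the cores for both genes.

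The remaining genes of this set were Crispld2, Apod, Bmp3, Col23a1, Fxyd6, Eya1 and Nfasc. Crispld2, a secreted protein, had 86.8, 176 and 250 CPM in hydrogels, against 1240, 992, 646 and 890 CPM in cores (log2 fold change -2.48, SE 0.27, edgeR adjusted p = 5.69e-05). Apod, a lipid carrier, had 83.3, 107 and 174 CPM in hydrogels, against 563, 538, 399 and 672 CPM in cores (log2 fold change -2.28, SE 0.22, edgeR adjusted p = 2.99e-05). Bmp3, a BMP family member, had 7.52, 13.8 and 36.5 CPM in hydrogels, against 48.6, 88.7, 129 and 233 CPM in cores (log2 fold change -2.97, SE 0.50, edgeR adjusted p = 0.000577). Its cores spread widely, with core 4 the highest, but stayed above every hydrogel. Col23a1, a membrane-bound collagen, Fxyd6, a regulator of the sodium pump, Eya1, a cofactor of transcription, and Nfasc, an adhesion molecule of nerve, had log2 fold changes of -2.29, -2.56, -2.49 and -2.94.

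**Figure D2:**
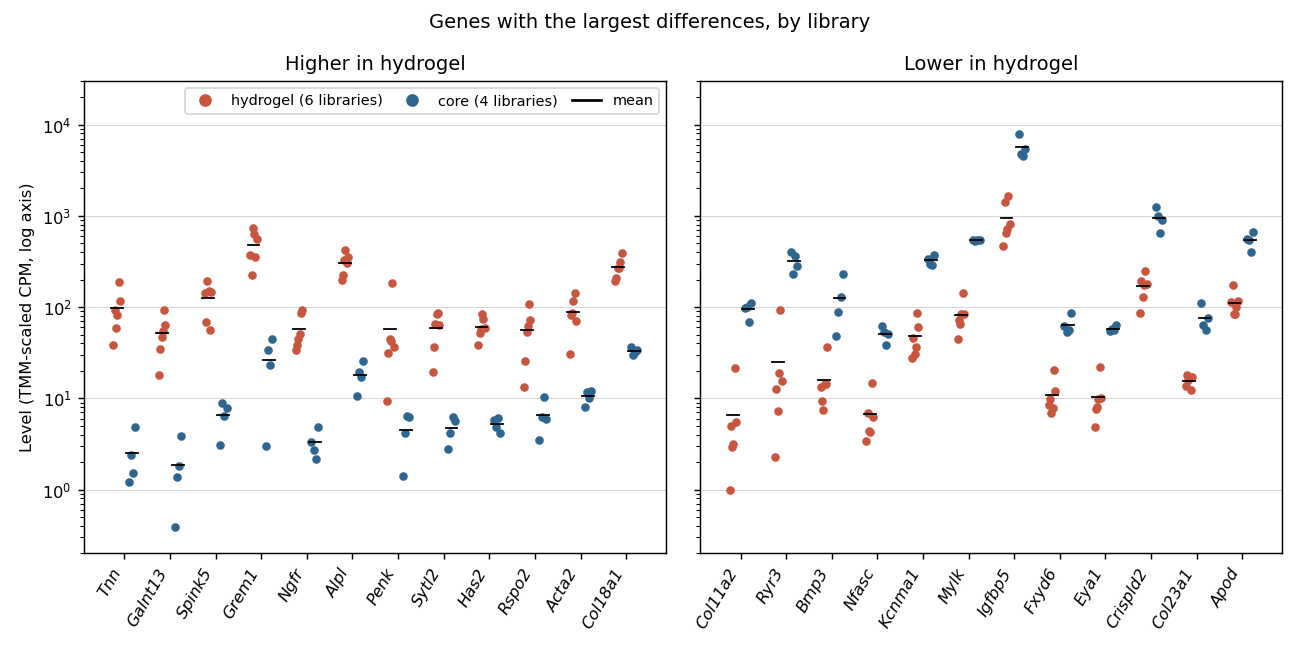
Level (TMM-scaled CPM, log axis) of the 12 genes with the largest positive and the 12 with the largest negative log2 fold change, 1 point per library, hydrogel left of core for each gene, lines at the means. The groups do not overlap for any gene shown, as the rule required, and hydrogel 5 is the high point of Penk (185 CPM), Ryr3 (91.8 CPM) and Col11a2 (21.4 CPM).

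The lowest p-values fell on other genes, apart from Has2 and Col18a1. Higher in hydrogel were Adra2a, an adrenergic receptor, with 5.85, 9.68 and 12.8 CPM in hydrogels against 0.386, 0.394, 0.417 and 0.367 CPM in cores (log2 fold change 4.58, SE 0.28, edgeR adjusted p = 7.82e-06), and Ndufa4, a subunit of the respiratory chain, with 75.5, 84.8 and 97.6 CPM in hydrogels against 33.3, 31.5, 26.9 and 31 CPM in cores (log2 fold change 1.48, SE 0.10, edgeR adjusted p = 8.5e-06). Rps27l, a p53-responsive relative of a ribosomal protein, and Txnl1, a relative of thioredoxin, had log2 fold changes of 1.33 and 0.84. Lower in hydrogel were Cacna1c, the pore of a voltage-gated calcium channel, with 22.2, 26.4 and 31.3 CPM in hydrogels against 113, 102, 91.6 and 105 CPM in cores (log2 fold change -1.96, SE 0.11, edgeR adjusted p = 6.13e-06), and Rasgrf2, an activator of RAS, with a log2 fold change of -2.67. Ankrd10, Wsb1, Ccnl1 and Prpf4b fell by 1.35, 1.16, 1.40 and 1.05 on the log2 scale with very even levels. Ccnl1 and Prpf4b act in the splicing of RNA.

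Genes that mark body position differed strongly. Of 35 HOX genes tested, 6 were higher and 24 lower in hydrogel, 85.7% called against 41.6% of all genes, with a median log2 fold change of -1.11 against -0.0015. Direction differed between the gene clusters. In the Hoxb cluster 9 of 9 genes were lower, in the Hoxc cluster 7 of 9 and in the Hoxa cluster 8 of 11, while in the Hoxd cluster 5 of 6 were higher and none lower. Summed levels were 18 CPM in hydrogels and 1.8 CPM in cores for Hoxd, against 29.9 CPM in hydrogels and 82.2 CPM in cores for Hoxb.

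Single HOX genes were low but even among the libraries of a compartment. Hoxd9 had 1.64, 3.01 and 3.42 CPM in hydrogels, against 0.165, 0.263, 0.16 and 0.275 CPM in cores (log2 fold change 3.65, SE 0.35, edgeR adjusted p = 3.13e-05), and Hoxd8 had 5.69, 12 and 13.1 CPM in hydrogels, against 0.552, 1.45, 0.706 and 0.826 CPM in cores (log2 fold change 3.58, SE 0.37, edgeR adjusted p = 4.05e-05). Neither overlapped between compartments. Hoxb6 had 0.93, 1.73 and 2.14 CPM in hydrogels, against 7.64, 7.1, 8.41 and 7.62 CPM in cores (log2 fold change -2.26, SE 0.23, edgeR adjusted p = 4.37e-05), and Hoxb3 had 1.93, 2.57 and 4.49 CPM in hydrogels, against 12, 12.5, 11.9 and 11.5 CPM in cores (log2 fold change -2.05, SE 0.23, edgeR adjusted p = 5.81e-05). Hoxb4 and Hoxa3 fell by 1.93 and 2.32 on the log2 scale. Among genes of the last paralogue group, which act at the far end of limb and tail, Hoxa13 had a mean of 9.76 CPM in hydrogels and 23 CPM in cores, Hoxb13 had 8.68 CPM in hydrogels and 18.4 CPM in cores, and both were called lower (log2 fold change -1.24 and -1.08). Hoxc13 of the same group had 3.96 CPM in hydrogels and 4.03 CPM in cores and was not called (-0.03, edgeR adjusted p = 0.932).

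Hoxa10 (38.9 CPM in hydrogels and 33.7 CPM in cores) and Hoxa11 (27 CPM in hydrogels and 15.3 CPM in cores), genes that act in the limb, did not follow the lower genes of their cluster. The first was not called (log2 fold change 0.21, SE 0.24, edgeR adjusted p = 0.479) and the second was called higher (0.82, SE 0.24, edgeR adjusted p = 0.0131). Hoxa11 was the one gene of the Hoxa cluster called higher.

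**Figure D3:**
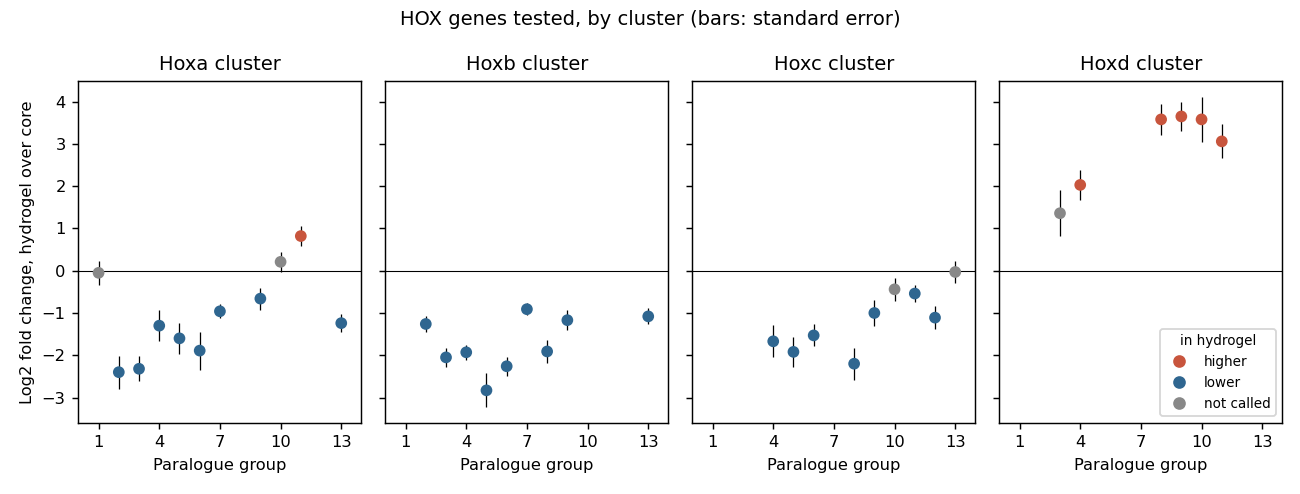
Log2 fold change of hydrogel over core (vertical axis, bars show the standard error) of 35 HOX genes by paralogue group (horizontal axis) in the 4 clusters, coloured by call. Called genes of the Hoxb and Hoxc clusters lie below 0, between -2.83 and -0.54, and those of the Hoxd cluster lie between 2.03 and 3.65.

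Other factors of limb identity went the same way as Hoxd in part. Of 21 genes of limb and axial position, 8 were higher and 4 lower (median 0.29). The summed level of the list was 582 to 980 CPM in hydrogels and 688 to 829 CPM in cores and overlapped. The 6 members named here were taken by lowest p, and all of them were higher. Pitx1, which specifies the hindlimb, had 6.16, 11 and 17.6 CPM in hydrogels, against 0.165, 0.351, 0.257 and 0.459 CPM in cores (log2 fold change 5.31, SE 0.42, edgeR adjusted p = 1.45e-05). Hand2, a factor of the early limb bud, had 7.24, 9.26 and 18.8 CPM in hydrogels, against 0.0276, 0.394, 0.449 and 0.597 CPM in cores (log2 fold change 5.05, SE 0.59, edgeR adjusted p = 7.84e-05). Both were near 0 in every core. Shox2, a factor of the upper limb segments, had 14.4, 30.9 and 36.2 CPM in hydrogels, against 0.414, 1.1, 1.06 and 1.88 CPM in cores (log2 fold change 4.68, SE 0.45, edgeR adjusted p = 2.97e-05). Foxc2, Tbx15 and Tbx18, further transcription factors of mesenchyme, had log2 fold changes of 3.59, 2.59 and 2.07. The labels name Achilles tendon as the source of the seeded cells and tail tendon as that of the cores.

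Counts of the gene lists are read against the shares over all genes, 17% higher, 24.6% lower and 41.6% called. Genes of the tendon lineage were called about as often as all genes, 42.1%, with 1 of 19 higher and 7 lower and a median of -0.74, and for several of them hydrogel 5 decided the call. Without hydrogel 5, 0 were higher and 12 lower (median -1.15), and with the title code as a block 0 were higher and 12 lower (-1.04). Mkx, a transcription factor of tenocytes, had 40.6, 65.7 and 122 CPM in hydrogels, against 184, 191, 189 and 226 CPM in cores (log2 fold change -1.50, SE 0.27, edgeR adjusted p = 0.000833). Fmod, a proteoglycan that binds collagen fibrils, had 1110, 1650 and 2690 CPM in hydrogels, against 4540, 4190, 3240 and 7820 CPM in cores (log2 fold change -1.52, SE 0.29, edgeR adjusted p = 0.00135). Cilp, a matrix protein of cartilage and tendon, had 454, 700 and 1470 CPM in hydrogels, against 2390, 2590, 1910 and 3560 CPM in cores (log2 fold change -1.70, SE 0.31, edgeR adjusted p = 0.000899). None of these 3 overlapped between compartments.

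Scx and Tnmd, the transcription factor and the membrane protein by which tenocytes are usually recognized, were not called. Tnmd had 45, 60.8, 26.9, 40.5, 316 and 116 CPM in hydrogels 1 to 6, against 204, 152, 103 and 294 CPM in cores (log2 fold change -0.90, SE 0.64, edgeR adjusted p = 0.258). Hydrogel 5 was above every core, and 4 of the other 5 hydrogels were below every core. The value was -1.68 (edgeR adjusted p = 0.00598) without hydrogel 5 and -1.72 (edgeR adjusted p = 9.15e-05) with the title code as a block. In the block fit, hydrogel 5 has no weight either. Scx had 5.68, 10.9 and 18.4 CPM in hydrogels, against 20, 17.6, 13.9 and 15.7 CPM in cores (log2 fold change -0.60, edgeR adjusted p = 0.0863), with -0.78 (edgeR adjusted p = 0.0124) without hydrogel 5 and -0.66 (edgeR adjusted p = 0.00941) with the block.

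Prg4, which encodes the joint and sheath lubricant lubricin, had 530, 884 and 1250 CPM in hydrogels, against 2370, 1550, 1540 and 3030 CPM in cores (log2 fold change -1.32, SE 0.29, edgeR adjusted p = 0.00313). Thbs4, a glycoprotein of tendon matrix, had 3020, 4120 and 8230 CPM in hydrogels, against 8320, 10700, 8920 and 17400 CPM in cores (log2 fold change -1.20, SE 0.34, edgeR adjusted p = 0.0111). Without core 4, the highest library, Thbs4 was not called (log2 fold change -0.85, edgeR adjusted p = 0.0743). Chad, a matrix protein that binds cells, had 0.481, 1.47 and 5.77 CPM in hydrogels, against 12.9, 4.91, 6.84 and 14.5 CPM in cores, with a log2 fold change of -2.28 that was -2.93 without hydrogel 5. Against cores labelled KO beside cell-free hydrogels, used as the core group instead, Prg4 and Thbs4 were not called (-0.17 and -0.63). Those cores had no seeded cells around them.

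Of 18 markers of paratenon and adventitial fibroblasts, 1 was higher and 7 lower (median -0.55), 44.4% called against 41.6% of all genes. Dpp4, a surface protease of adventitial fibroblasts, had 0.415, 0.908 and 2.14 CPM in hydrogels, against 6.18, 12.4, 12.1 and 12.5 CPM in cores (log2 fold change -3.35, SE 0.39, edgeR adjusted p = 7.39e-05). Dpt, a matrix protein of universal fibroblasts, had 26.4, 44 and 74.9 CPM in hydrogels, against 186, 181, 74.9 and 126 CPM in cores (log2 fold change -1.64, SE 0.30, edgeR adjusted p = 0.000972). The highest hydrogel and the lowest core of Dpt were level at 74.9 CPM. Ly6c1, Ebf2 and Has1 had log2 fold changes of -1.75, -2.62 and -1.76. Has1 makes hyaluronan like Has2, and the 2 synthases thus went in opposite directions.

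The main collagens of tendon were not called. Col1a1 had 4000, 9100, 6220, 7450, 21800 and 9420 CPM in hydrogels 1 to 6, against 11200, 7630, 4710 and 5930 CPM in cores (log2 fold change 0.39, SE 0.45, edgeR adjusted p = 0.484). Col1a2 had 5930, 10000 and 26100 CPM in hydrogels, against 15100, 13000, 8670 and 13500 CPM in cores (-0.05, SE 0.40, edgeR adjusted p = 0.921). Hydrogel 5 was the highest library for both chains. Col3a1, which rises in healing tendon, had 9090, 10900 and 13000 CPM in hydrogels, against 10400, 12000, 5810 and 8520 CPM in cores (0.28, SE 0.24, edgeR adjusted p = 0.349), and was called higher against cores beside cell-free hydrogels (1.04, edgeR adjusted p = 0.0057). Of 11 fibrillar collagen genes, 2 were higher and 3 lower.

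Rarer collagens showed the differences. Col2a1, the collagen of cartilage, had 6.93, 21.6 and 49.8 CPM in hydrogels, against 0.993, 1.4, 1.32 and 1.51 CPM in cores (log2 fold change 4.21, SE 0.56, edgeR adjusted p = 0.00015), and Col28a1, a collagen known from peripheral nerve, had 13.7, 19.9 and 45.9 CPM in hydrogels, against 0.662, 0.657, 0.899 and 1.74 CPM in cores (log2 fold change 4.69, SE 0.50, edgeR adjusted p = 4.96e-05). Neither overlapped. Among 25 other collagens, 8 were higher and 6 lower, Col4a5 of basement membranes with a log2 fold change of 2.18 and the membrane-bound Col13a1 with -2.53. Col5a3 (0.61) and Col24a1 (-0.77), both fibrillar, differed less.

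Small leucine-rich proteoglycans, which set the diameter of collagen fibrils, were lower in hydrogel for 6 of 15 and higher for 2 (median -0.72). With the title code as a block, 9 were lower and 3 higher, and without hydrogel 5, 9 were lower and 2 higher (median -1.12). Prelp had 123, 150 and 197 CPM in hydrogels, against 527, 452, 532 and 697 CPM in cores (log2 fold change -1.85, SE 0.16, edgeR adjusted p = 2.13e-05). Podn fell by 1.36 on the log2 scale, while Podnl1, its close relative, was higher by 0.93. Omd, known from bone, had 1.62, 6.78 and 45.6 CPM in hydrogels, against 1.41, 0.964, 0.61 and 1.38 CPM in cores, with a log2 fold change of 3.63 that was 2.72 without hydrogel 5. Dcn, decorin, had 2240, 2900 and 3980 CPM in hydrogels, against 4020, 4140, 3710 and 6520 CPM in cores (log2 fold change -0.64, edgeR adjusted p = 0.0309). Its call was lost without any 1 of hydrogels 1 to 4 or core 4, with -0.36 (edgeR adjusted p = 0.212) without core 4 as the smallest difference.

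Among glycoproteins and elastic fibre genes, 6 of 33 were higher and 10 lower (median -0.13). Tnxb, the tenascin of loose connective tissue, had 36.2, 48 and 69.8 CPM in hydrogels, against 199, 271, 222 and 280 CPM in cores (log2 fold change -2.23, SE 0.21, edgeR adjusted p = 2.55e-05). Fbln1, a fibulin, had 338, 380 and 465 CPM in hydrogels, against 1470, 1340, 1180 and 1490 CPM in cores (log2 fold change -1.81, SE 0.12, edgeR adjusted p = 8.68e-06). Eln, elastin, and Mfap4, a protein of its microfibrils, fell by 1.84 and 1.83 on the log2 scale. Thbs1, a thrombospondin that activates latent TGF-beta, went the other way with 1050, 2740 and 8370 CPM in hydrogels, against 224, 423, 487 and 703 CPM in cores (log2 fold change 2.92, SE 0.59, edgeR adjusted p = 0.00175).

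Large proteoglycans and hyaluronan genes were higher in hydrogel for 8 of 15 and lower for 2 (median 0.64). Acan, the aggregating proteoglycan of cartilage, had 24.8, 38 and 70.9 CPM in hydrogels, against 4.77, 2.63, 1.06 and 2.89 CPM in cores (log2 fold change 3.86, SE 0.44, edgeR adjusted p = 6.88e-05). Vcan, versican, a proteoglycan of provisional matrix, had 408, 673 and 1100 CPM in hydrogels, against 321, 195, 167 and 236 CPM in cores (log2 fold change 1.65, SE 0.32, edgeR adjusted p = 0.00136). Hapln1, which links such proteoglycans to hyaluronan, was higher by 2.91. The synthase Has2, this link protein and both proteoglycans were thus called higher, while the synthase Has1 was called lower. The summed level of the list was 2459 to 4727 CPM in hydrogels and 3854 to 5661 CPM in cores and overlapped.

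Matrix metalloproteinases were higher in hydrogel for 8 of 16 and lower for none (median 0.82), with 10 higher and 2 lower with the title code as a block. Mmp13, an interstitial collagenase, had 4570, 8000 and 9300 CPM in hydrogels, against 3100, 3390, 2940 and 3920 CPM in cores (log2 fold change 1.16, SE 0.24, edgeR adjusted p = 0.0023). Mmp14, a membrane-bound collagenase, had 721, 882 and 1330 CPM in hydrogels, against 360, 476, 436 and 417 CPM in cores (log2 fold change 1.22, SE 0.21, edgeR adjusted p = 0.000593). Mmp19 had 86.8, 97.1 and 103 CPM in hydrogels, against 53.9, 59.3, 55.1 and 54.4 CPM in cores (log2 fold change 0.78, SE 0.08, edgeR adjusted p = 3.44e-05). Mmp15, Mmp17 and Mmp28 had log2 fold changes of 2.42, 2.30 and 0.81. The summed level of the list was 18860 to 37530 CPM in hydrogels and 21070 to 40370 CPM in cores and overlapped.

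The ADAMTS family and other matrix proteases were called in the other direction more often, with 5 of 33 higher and 13 lower (median 0.11, 10 higher and 14 lower with the title code as a block). Adamts5, an aggrecanase, had 140, 170 and 290 CPM in hydrogels, against 650, 739, 653 and 1110 CPM in cores (log2 fold change -2.09, SE 0.22, edgeR adjusted p = 5.06e-05). Adamts1, which cleaves versican and aggrecan, had 187, 220 and 318 CPM in hydrogels, against 710, 804, 454 and 1060 CPM in cores (log2 fold change -1.72, SE 0.22, edgeR adjusted p = 0.000119), and was not called against cores beside cell-free hydrogels (-0.33, edgeR adjusted p = 0.21). Adamts6, Adamts10 and Adamts15 fell by 2.14, 1.20 and 2.66 on the log2 scale. Adamts4, another aggrecanase, named after its values were seen, went the other way with a mean of 77.3 CPM in hydrogels and 37.2 CPM in cores (log2 fold change 1.05, SE 0.18, edgeR adjusted p = 0.00065).

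Inhibitors of proteases split, with 8 of 17 higher and 5 lower (median 0.66 over the list). Timp1, an inhibitor of metalloproteinases, had 821, 1110 and 1610 CPM in hydrogels, against 316, 397, 326 and 541 CPM in cores (log2 fold change 1.52, SE 0.22, edgeR adjusted p = 0.00025). Serpine2, an inhibitor of thrombin and plasminogen activators, had 257, 372 and 428 CPM in hydrogels, against 49.6, 32.6, 42.4 and 56.9 CPM in cores (log2 fold change 2.96, SE 0.21, edgeR adjusted p = 1.15e-05). Serpinb2, an inhibitor of plasminogen activators, was low in cores and had 7.45, 13.2 and 56.6 CPM in hydrogels, against 0.11, 0.307, 0.385 and 1.19 CPM in cores, and its log2 fold change of 5.52 ranged between 4.93 without hydrogel 4 and 6.39 without core 4. Serping1, the inhibitor of the complement starter C1, fell, with 330, 545 and 639 CPM in hydrogels, against 1190, 1590, 1400 and 1370 CPM in cores (log2 fold change -1.40, SE 0.18, edgeR adjusted p = 0.000113).

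Markers of myofibroblasts and activated fibroblasts were higher in hydrogel for 11 of 21 and lower for 2 (median 0.82). Besides Acta2, these held Tagln, an actin-binding protein of contractile cells, with 17.2, 34.1 and 55.8 CPM in hydrogels, against 4.14, 5.3, 4.08 and 5 CPM in cores (log2 fold change 2.99, SE 0.30, edgeR adjusted p = 3.68e-05). Postn, a matrix protein of healing tissue, had 605, 860 and 1180 CPM in hydrogels, against 150, 142, 74.3 and 57.8 CPM in cores (log2 fold change 3.01, SE 0.33, edgeR adjusted p = 5.6e-05). Cnn1 and Myl9, further contractile genes, had log2 fold changes of 3.73 and 2.63. Runx1, a transcription factor, went against them, with 147, 209 and 322 CPM in hydrogels, against 555, 456, 522 and 628 CPM in cores (log2 fold change -1.28, SE 0.19, edgeR adjusted p = 0.000281). Of integrins, receptors for matrix, 6 of 18 were higher and 2 lower (10 and 2 with the title code as a block), Itga8 and Itga11 with log2 fold changes of 1.85 and 1.67, and Itga1 and Itga2 with -1.24 and -0.96. Itga11, Itga1 and Itga2 each form a collagen receptor.

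Genes of cartilage and bone were higher in hydrogel for 9 of 14 and lower for 1 (median 1.56, and 0.95 without core 1). Ibsp, a protein of bone matrix, had 10.2, 25.9 and 55.3 CPM in hydrogels, against 0.0827, 0.219, 0.578 and 0.321 CPM in cores (log2 fold change 6.62, edgeR adjusted p = 6.13e-05, 7.25 without core 3). Sp7, the transcription factor osterix of bone-forming cells, had 4.26, 7.46 and 14.3 CPM in hydrogels, against 0.0552, 0.263, 0.16 and 0.459 CPM in cores (log2 fold change 5.31, edgeR adjusted p = 4.6e-05, 5.90 without core 4). Both were under 0.6 CPM in every core, and Alpl, Col2a1 and Acan went the same way. Tnfsf11 (RANKL), which drives osteoclast formation, had 39.2, 63.6 and 77.5 CPM in hydrogels, against 10.9, 24.7, 19 and 14.6 CPM in cores (log2 fold change 1.79, SE 0.26, edgeR adjusted p = 0.000255), and its decoy receptor Tnfrsf11b was higher by 2.17. Of 12 osteoclast genes, 2 were higher (6 with the title code as a block) and none lower, with a median of 1.49 (0.86 without hydrogel 1).

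Markers of Schwann cells and nerve were higher in hydrogel for 8 of 14 and lower for 1 (median 1.97). With at least 10 counts in every library required, 11 members were left and their median was 0.45. Sox10, the factor that sets Schwann cell fate, had 6.78, 8.84 and 15.1 CPM in hydrogels, against 0.138, 0.219, 0.321 and 1.01 CPM in cores (log2 fold change 4.67, edgeR adjusted p = 6.93e-05, 5.55 without core 4). Foxd3, a factor of neural crest, had 3.26, 4.74 and 9.81 CPM in hydrogels, against 0.0552, 0, 0.16 and 0.184 CPM in cores (log2 fold change 5.84, SE 0.61, edgeR adjusted p = 4.43e-05). Erbb3, a receptor for neuregulin, Cadm4, an adhesion molecule, and S100b, a calcium-binding protein, had log2 fold changes of 2.44, 4.01 and 1.51. The summed level of the list was 527 to 693 CPM in hydrogels and 579 to 700 CPM in cores and overlapped.

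Defining markers of further cell types were low. Krt14 of keratinocytes, Hbb-bs and Hba-a1 of red cells, Cd3e of T cells and Cpa3 of mast cells were at 0 in every hydrogel. Alas2 of red cells had 0.831, 1.4 and 3.02 CPM in hydrogels, against 5.79, 5.43, 7.13 and 4.68 CPM in cores (log2 fold change -1.9, edgeR adjusted p = 0.000635). Trp63 of keratinocytes and Cd79a of lymphocytes had counts in every library and were not called (-0.55 and -1.11). Without a count in any hydrogel were 5 of 14 keratinocyte, 5 of 7 erythroid and 9 of 18 lymphocyte, mast cell and granulocyte markers. In cores these numbers were 0, 1 and 0. Of the olfactory and vomeronasal receptor genes, which are foreign to tendon, 937 to 1224 had a count in cores and 77 to 126 in hydrogels. A count alone therefore does not show a cell type in the cores. Of 11 endothelial markers tested, 1 was higher and 2 lower (4 lower with the title code as a block). The summed level of 15 skeletal muscle markers was 6.11 to 22.9 CPM in hydrogels and 20.4 to 58.6 CPM in cores.

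Proliferation genes were higher in hydrogel. Of 38 cell cycle and mitosis genes, 31 were higher and none lower, 81.6% called against 41.6% of all genes (median 1.08 against -0.0015), and of 30 DNA replication genes 22 were higher and none lower (median 0.70). Cdk1, the kinase that starts mitosis, had 17.8, 28.3 and 46.1 CPM in hydrogels, against 11.7, 11.2, 11.8 and 10.8 CPM in cores (log2 fold change 1.41, SE 0.24, edgeR adjusted p = 0.000644). Cdc20, which activates the anaphase ligase, had 9.86, 16 and 24.5 CPM in hydrogels, against 6.34, 6.27, 6.19 and 4.82 CPM in cores (log2 fold change 1.52, SE 0.26, edgeR adjusted p = 0.000597). Rrm2, a subunit of the enzyme that makes deoxynucleotides, had 33.1, 50.6 and 60.2 CPM in hydrogels, against 13.7, 15, 15.4 and 16.2 CPM in cores (log2 fold change 1.70, SE 0.15, edgeR adjusted p = 2.16e-05). Ccne1, Ccnd1, Cdc25c, Kif20a, Cdt1, Pcna and Mcm4, cyclins and factors of replication and division, had log2 fold changes of 1.09, 0.85, 1.20, 0.91, 1.39, 1.02 and 0.68.

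Mki67, a widely used marker of cycling cells, had 66.7, 119 and 253 CPM in hydrogels, against 117, 91.6, 129 and 95.8 CPM in cores, and was not called (log2 fold change 0.40, SE 0.34, edgeR adjusted p = 0.34). Its hydrogel libraries lay on both sides of the cores. Against cores labelled KO beside cell-free hydrogels, 8 of 38 cell cycle genes (median 0.58) and 3 of 30 replication genes (median 0.28) were called higher and none lower. Ccnd1, Pcna and Mcm4 were not called there (0.20, 0.46 and 0.28).

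Promoters of the cell cycle list are shown because its members moved together and because many such promoters are known to share 2 short elements, the cell cycle homology region (CHR, TTTGAA) and the CCAAT box. Promoter sequences came from RefSeq for GRCm38.p6 and span 250 bases before to 50 bases after the start, and both strands were searched. CHR was in 63.6% of the list's 33 promoters, against 17.9% of all 32851 promoters, and CCAAT was in 75.8% against 37.4%. Of the 31 genes called higher, 22 had a promoter sequence. With promoters on a single chromosome left out, 15 of these genes held both elements. The 3 of them with the lowest p were Cdc20 (chr4:118437294-118437593, minus strand), Cdk1 (chr10:69352863-69353162, minus strand) and Ttk (chr9:83834439-83834738, plus strand), with capitals for CHR and CCAAT on either strand.
Cdc20: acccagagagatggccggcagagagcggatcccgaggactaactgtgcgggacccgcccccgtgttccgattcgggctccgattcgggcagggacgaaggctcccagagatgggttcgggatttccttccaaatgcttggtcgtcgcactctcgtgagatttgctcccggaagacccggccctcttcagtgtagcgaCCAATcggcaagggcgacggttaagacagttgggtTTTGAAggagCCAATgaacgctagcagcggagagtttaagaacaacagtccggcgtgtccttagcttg
Cdk1: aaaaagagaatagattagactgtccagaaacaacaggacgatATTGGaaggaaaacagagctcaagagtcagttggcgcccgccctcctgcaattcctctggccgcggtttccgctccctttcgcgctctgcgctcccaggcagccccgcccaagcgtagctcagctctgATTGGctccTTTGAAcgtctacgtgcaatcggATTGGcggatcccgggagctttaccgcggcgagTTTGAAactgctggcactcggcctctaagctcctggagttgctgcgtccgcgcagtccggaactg
Ttk: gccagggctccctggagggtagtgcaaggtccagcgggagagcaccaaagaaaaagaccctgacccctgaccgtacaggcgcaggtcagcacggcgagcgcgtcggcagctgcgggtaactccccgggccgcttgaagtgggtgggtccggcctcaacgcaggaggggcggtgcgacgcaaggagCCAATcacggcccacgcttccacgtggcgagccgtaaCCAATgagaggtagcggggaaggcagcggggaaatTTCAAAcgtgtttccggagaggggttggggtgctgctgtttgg

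Among promoters of all genes called in this comparison the shares were close to each other in both directions. CHR was in 12.9% of promoters of genes higher in hydrogel and in 13.2% of those lower in hydrogel, against 12.4% of all genes tested, and CCAAT was in 37.5% and 35.9%. A match is a description of the letters in this window.

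Of 18 inhibitors of the cell cycle and senescence genes, 7 were higher, 1 lower and 10 not called (44.4% called against 41.6% of all genes, median 0.22). Cdkn2a, which encodes p16 and ARF, had 17.5, 21.8 and 25.7 CPM in hydrogels, against 4.94, 3.99, 3.15 and 5.28 CPM in cores (log2 fold change 2.32, SE 0.18, edgeR adjusted p = 1.42e-05). Cdkn2b, encoding p15, had 34.2, 73.6 and 89.6 CPM in hydrogels, against 8.08, 11.8, 8.92 and 12.9 CPM in cores (log2 fold change 2.67, SE 0.28, edgeR adjusted p = 4.86e-05). Cdkn1a, encoding p21, had 101, 106 and 123 CPM in hydrogels, against 59.2, 50.6, 51.2 and 38.7 CPM in cores (log2 fold change 1.13, SE 0.12, edgeR adjusted p = 4.25e-05). Ccng1, like Cdkn1a a target of p53, was higher by 1.25. The gene called lower was Cdkn1b, encoding p27, with 41.4, 48.3 and 62.1 CPM in hydrogels, against 70.1, 75.9, 62 and 76.4 CPM in cores (log2 fold change -0.54, SE 0.11, edgeR adjusted p = 0.0023).

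Ligands and inhibitors of the TGF-beta and BMP pathway split, with 13 of 33 genes higher and 8 lower (median 0.08). Bmp4, a ligand, fell, with 1.51, 3.59 and 8.8 CPM in hydrogels, against 25.3, 29.9, 38 and 32.4 CPM in cores (log2 fold change -2.91, SE 0.39, edgeR adjusted p = 0.000158). Id1, a direct target of BMP signals, had 23.9, 34.6 and 53.7 CPM in hydrogels, against 4.25, 5.21, 11.7 and 6.61 CPM in cores (log2 fold change 2.35, SE 0.32, edgeR adjusted p = 0.000169). Id3, a related target, and the inhibitory Smad6 and Smad7 had log2 fold changes of 1.62, 1.43 and 1.42. Smad3, which carries TGF-beta signals to the nucleus, fell by 1.05 on the log2 scale. Ligands Bmp3 and Bmp4 were thus lower and the inhibitor Grem1 higher, while the targets Id1 and Id3 were higher.

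Of 29 genes of the Wnt pathway, 10 were higher and 7 lower (median 0.03). Wnt5a, a ligand, had 22.9, 24.3 and 27.7 CPM in hydrogels, against 11.1, 12, 9.24 and 12.5 CPM in cores (log2 fold change 1.15, SE 0.11, edgeR adjusted p = 2.5e-05). Wif1, a secreted inhibitor, had 0.896, 2.35 and 4.73 CPM in hydrogels, against 31.2, 11.2, 14.3 and 28.1 CPM in cores (log2 fold change -3.12, SE 0.42, edgeR adjusted p = 0.000172). Notum and Frzb, inhibitors too, went the other way with log2 fold changes of 3.47 and 3.60. Rspo1, like Rspo2 an enhancer, was higher by 2.82. Axin2, a direct target of the pathway, fell by 1.06 on the log2 scale, with 2.66, 3.56 and 4.58 CPM in hydrogels, against 6.2, 7.89, 8.06 and 8.08 CPM in cores.

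Growth factors differed gene by gene. Igf1 had 491, 566 and 627 CPM in hydrogels, against 1660, 1820, 1320 and 1860 CPM in cores (log2 fold change -1.57, SE 0.13, edgeR adjusted p = 1.69e-05), and Pappa, a protease that frees it from binding proteins, had 35.7, 63.9 and 83.7 CPM in hydrogels, against 11.5, 11.1, 6.87 and 6.66 CPM in cores (log2 fold change 2.84, SE 0.28, edgeR adjusted p = 3.42e-05). The pair went in opposite directions. Stc1, an inhibitor of that protease, and Igfbp2, a binding protein, were higher by 3.24 and 2.60, and of 16 genes of the IGF axis 5 were higher and 3 lower. Hgf, a growth factor for epithelium and endothelium made by mesenchyme, had 54.6, 77.9 and 124 CPM in hydrogels, against 12.7, 13.8, 14 and 16.9 CPM in cores (log2 fold change 2.50, SE 0.23, edgeR adjusted p = 2.33e-05). Fgf7 and Btc were higher by 1.27 and 3.67, while Fgf9 and Fgfr4 fell by 2.29 and 3.36.

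In the IL-6 family, 2 of 16 genes were higher and 4 lower (median -0.17), 37.5% called and close to the shares over all genes. Il11, a cytokine of the family, had 3.4, 4.62 and 20.2 CPM in hydrogels, against 0.358, 0.657, 2.54 and 0.78 CPM in cores, with a log2 fold change of 2.94 that was 3.84 without core 3. The 4 that fell were receptors. Osmr, the oncostatin M receptor, had 132, 172 and 216 CPM in hydrogels, against 287, 317, 301 and 324 CPM in cores (log2 fold change -0.86, SE 0.13, edgeR adjusted p = 0.000344), Lifr, the receptor of leukemia inhibitory factor, had 73.4, 106 and 178 CPM in hydrogels, against 195, 220, 221 and 234 CPM in cores (log2 fold change -0.91, SE 0.21, edgeR adjusted p = 0.00432), and Cntfr, the receptor of ciliary neurotrophic factor, fell by 1.40 on the log2 scale. Il6st, the subunit gp130 through which the whole family signals, had a mean of 773 CPM in hydrogels and 1163 CPM in cores (log2 fold change -0.59, SE 0.18, edgeR adjusted p = 0.0191).

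Macrophage genes were present in both compartments and varied widely among hydrogels. Lyz2, lysozyme of macrophages and granulocytes, had 21000, 12600, 11600, 8160, 1460 and 8350 CPM in hydrogels 1 to 6, against 6320, 6380, 5200 and 5810 CPM in cores (log2 fold change 0.83, SE 0.53, edgeR adjusted p = 0.212). Hydrogel 5 was below every core and the other 5 were above every core. The value was 1.07 (edgeR adjusted p = 0.0102) without hydrogel 5 and 0.76 (edgeR adjusted p = 0.00266) with the title code as a block. In the block fit, hydrogel 5 has no weight either. Adgre1, which encodes F4/80, had 74.2, 515 and 884 CPM in hydrogels, against 321, 297, 299 and 252 CPM in cores (0.77, edgeR adjusted p = 0.2), with 1.01 (edgeR adjusted p = 0.00201) without hydrogel 5 and 0.78 (edgeR adjusted p = 0.000171) with the block. Cd68 was not called either (0.65, edgeR adjusted p = 0.31), with 0.88 (edgeR adjusted p = 0.0204) and 0.54 (edgeR adjusted p = 0.0224).

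Over the list, 0 of 25 macrophage markers were called, 16 were higher and none lower without hydrogel 5, and 15 were higher and none lower with the block. Their summed level was 2859 to 38420 CPM in hydrogels and 10690 to 12420 CPM in cores. Lipid-associated and activated macrophage genes were higher for 4 of 18 and lower for none, against 11 and 0 without hydrogel 5 and 12 and 3 with the block. Csf1r and Ptprc, the receptor for colony-stimulating factor and the common leukocyte antigen, were not called (0.24 and 0.13). Ddx3y, a Y-linked gene, was high in hydrogels whose paired core was high and low where it was low, with 8.29, 74.6, 22.9 and 79.1 CPM in hydrogels 2, 3, 4 and 6, against 0.165, 95.2, 1.25 and 99.8 CPM in cores 1 to 4.

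**Figure D4:**
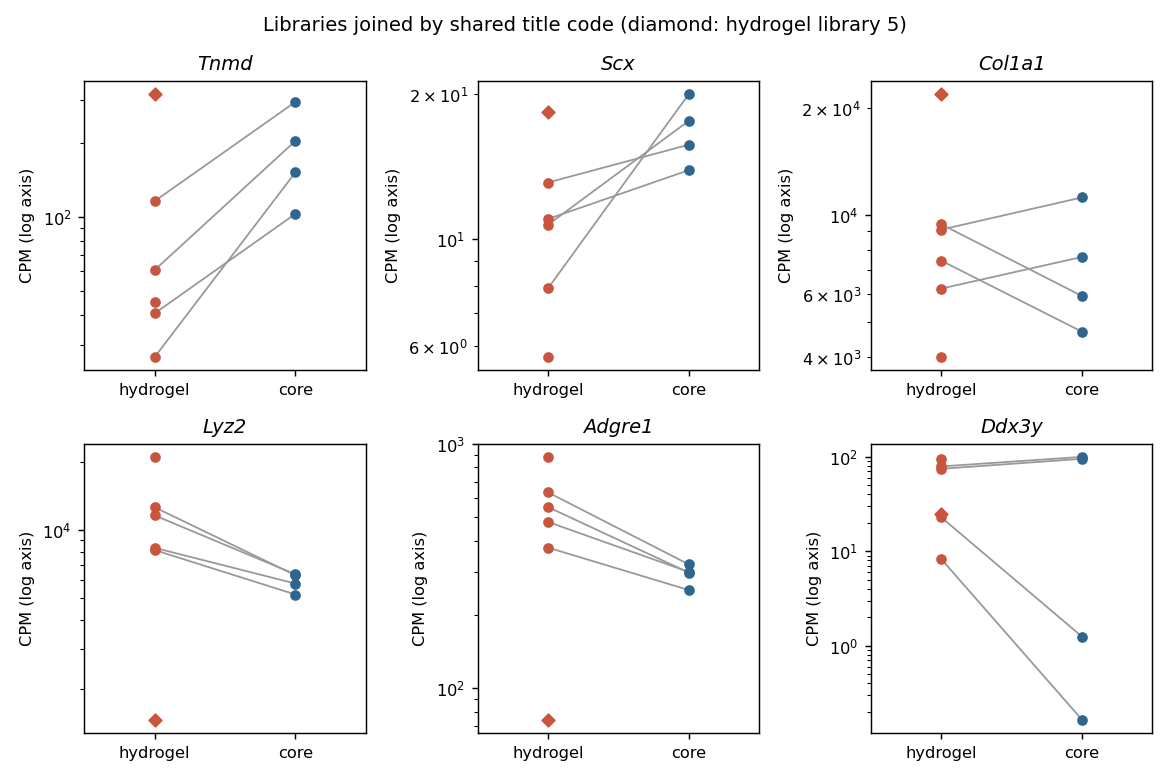
Level (CPM, log axis) of 6 genes in hydrogel and core libraries, 1 point per library, with lines between libraries that share a title code and a diamond for hydrogel 5. In all 4 pairs Tnmd and Scx are lower and Lyz2 and Adgre1 higher in hydrogel, while Col1a1 goes both ways and Ddx3y is higher in hydrogel where the paired core is near 0.

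Inflammatory signals were higher for some members. Of 23 chemokines, 6 were higher and 2 lower (34.8% called, median 0.98, and 0.39 without hydrogel 1), with 13 and 3 under the title code block and 11 and 2 without hydrogel 5. Cx3cl1, the ligand of the macrophage receptor Cx3cr1, had 85, 113 and 194 CPM in hydrogels, against 20.9, 17.2, 13.2 and 25.8 CPM in cores (log2 fold change 2.68, SE 0.27, edgeR adjusted p = 3.87e-05). Ccl2 and Ccl7, which attract monocytes, had log2 fold changes of 1.32 and 1.20, and Ccl2 was not called against cores beside cell-free hydrogels (0.58, edgeR adjusted p = 0.274). Ptgs2, the inducible cyclooxygenase, had 52.9, 80 and 158 CPM in hydrogels, against 8.25, 21.8, 15.5 and 23.1 CPM in cores (log2 fold change 2.41, SE 0.39, edgeR adjusted p = 0.0005). Cxcl14 fell by 0.98 on the log2 scale (edgeR adjusted p = 0.0276), a call lost without any 1 of hydrogels 3 and 4 or cores 1, 2 and 4 (up to edgeR adjusted p = 0.0794) and turned round against cores beside cell-free hydrogels (1.43, edgeR adjusted p = 0.0104).

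Genes induced by interferon depended on the fit. Of 40, 1 was higher and 7 lower (median -0.14), against 10 and 8 with the title code as a block and 6 and 6 without hydrogel 5. Against cores beside cell-free hydrogels, 0 were higher and 21 lower (median -0.90). Mx1 and Mx2, antiviral proteins, fell by 2.23 and 1.89 on the log2 scale at low levels, Mx2 with 0.611, 1.04 and 2.42 CPM in hydrogels, against 7.11, 2.76, 5.52 and 2.94 CPM in cores, and Gbp4 fell by 2.91 with means under 1 CPM in both compartments.

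Genes of protein synthesis and respiration were higher together. All 53 cytosolic ribosomal protein genes were higher (median 0.89), and 50 with the title code as a block. Rpl19 had 409, 420 and 479 CPM in hydrogels, against 190, 206, 180 and 230 CPM in cores (log2 fold change 1.09, SE 0.10, edgeR adjusted p = 2.16e-05). Rps25 had 196, 213 and 239 CPM in hydrogels, against 103, 109, 95.6 and 119 CPM in cores (log2 fold change 1.01, SE 0.09, edgeR adjusted p = 2.18e-05). Ribosomal protein genes have many near-identical copies, so that values of single members are uncertain. Of 45 nuclear genes of oxidative phosphorylation, 43 were higher and none lower (median 0.76). Mitochondrially encoded genes went the other way, with 0 of 9 higher and 5 lower (median -0.60). Without hydrogel 5, 8 were lower, and with the title code as a block 7 were lower. Among them, mt-Nd2 had 56.6, 77.9 and 163 CPM in hydrogels, against 134, 174, 247 and 152 CPM in cores (log2 fold change -0.97, SE 0.28, edgeR adjusted p = 0.0123).

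The ribosomal and respiratory lists hold short transcripts. Over 16061 tested genes with a length, 42.2% of those up to 1 kb were higher and 25.3% lower (median log2 fold change 0.45), against 6% higher and 38% lower among those over 8 kb (median -0.41), and the Spearman correlation of log2 fold change with length across genes was -0.17. The median length was 1.13 kb for the ribosomal list, 1.23 kb for the nuclear respiratory list and 1.04 kb for the mitochondrially encoded genes, which were lower in hydrogel. Cell cycle genes, with a median of 3.66 kb, were higher. In the study's methods the limit on RNA integrity was low. All 6 hydrogel pools of a condition, but only 4 core pools, passed it together with a limit on RNA concentration. The part of RNA integrity and transcript length in these lists was not tested.

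Among stress-response and metabolic lists, most genes called in the NRF2, ATF4, heat shock and glycolysis lists were higher. Of 21 genes of the NRF2 antioxidant response, 13 were higher and none lower (median 0.70), against 8 and 1 with cores beside cell-free hydrogels. Nqo1, a quinone reductase, had 17.6, 33.3 and 35.8 CPM in hydrogels, against 5.76, 7.54, 7 and 6.98 CPM in cores (log2 fold change 2.12, SE 0.21, edgeR adjusted p = 3.87e-05), and Gsta4, a glutathione transferase, had 6.93, 37 and 66 CPM in hydrogels, against 1.21, 0.657, 0.899 and 1.19 CPM in cores (log2 fold change 5.18, SE 0.69, edgeR adjusted p = 0.000158). Of 23 genes of ATF4 and serine synthesis, 12 were higher and none lower (median 0.82), Phgdh and Psat1, enzymes of serine synthesis, with log2 fold changes of 2.15 and 1.60. Heat shock genes were higher for 11 of 17 and lower for 1, and cholesterol synthesis genes were higher for 0 of 23 and lower for 1. Hypoxia genes were higher for 6 of 29 and lower for 4 (median 0.12), with 11 and 5 under the title code block and 20 and 0 against cores beside cell-free hydrogels (median 1.41). Glycolysis genes were higher for 7 of 19 and lower for 1 (median 0.52), with 11 and 1 under the block and 14 and 0 against those cores (median 1.35).

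Circadian clock genes were lower in hydrogel for 8 of 16 and higher for none (median -0.49), against 4 and 0 with cores beside cell-free hydrogels. Per3, which represses the clock's activators, had 19.8, 21.4 and 29.7 CPM in hydrogels, against 78.6, 61, 58.5 and 67.4 CPM in cores (log2 fold change -1.54, SE 0.13, edgeR adjusted p = 1.77e-05). Npas2, an activator, had 4.46, 6.58 and 12.1 CPM in hydrogels, against 35.4, 31.6, 31.7 and 37.6 CPM in cores (log2 fold change -2.20, SE 0.24, edgeR adjusted p = 5.97e-05). Hlf, a factor under control of the clock, and Rora, a receptor that feeds back on it, fell by 2.27 and 1.32 on the log2 scale, and Hlf was not called against cores beside cell-free hydrogels (-0.64, edgeR adjusted p = 0.0681).

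**Figure D5:**
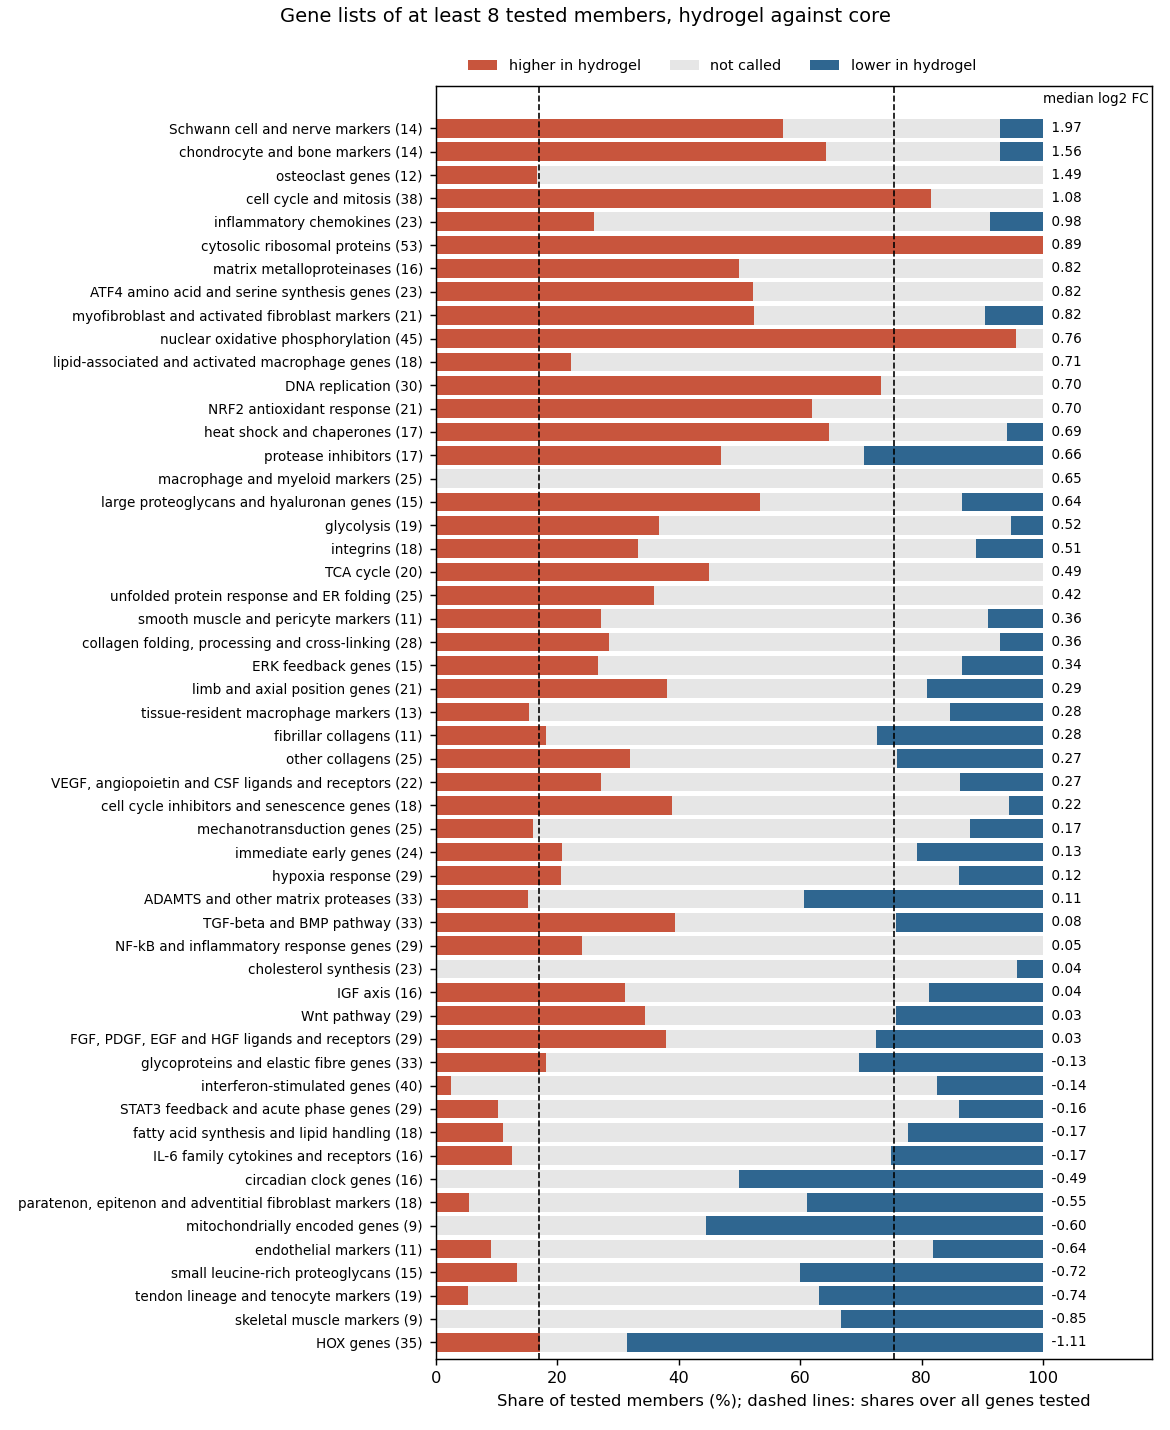
Share of tested members (%, horizontal axis) called higher in hydrogel, not called and called lower in hydrogel for 53 gene lists with at least 8 tested members (number in brackets), with each list's median log2 fold change at the right and dashed lines at the shares over all genes (17% higher and 24.6% lower). Ribosomal proteins are wholly higher, the macrophage list has no call, and HOX genes have the largest share lower of the lists drawn (24 of 35).

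The same comparison was made in assembloids with WT cores (hydrogel n = 6, core n = 4), where 2905 genes were higher and 3965 lower of 16037 tested. Of 6534 genes called around cores labelled KO and tested there, 6531 had the same sign and 5531 were called the same way. Across 15863 genes the log2 fold changes had a Pearson correlation of 0.97. The 2 sets of libraries share medium, sources of tissue and transcript lengths, and genes are not independent. The log2 fold change of Tnn was 5.31 with cores labelled KO and 5.24 with WT cores, that of Alpl 4.08 with cores labelled KO and 4.31 with WT cores, and that of Pitx1 5.31 with cores labelled KO and 5.45 with WT cores. On the side of lower genes, Igfbp5 had -2.57 with cores labelled KO and -2.69 with WT cores, and Mkx had -1.50 with cores labelled KO and -1.76 with WT cores.

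Whether the compartment difference itself differed by core label was tested on 20 libraries as the difference of both differences. Of 16603 genes, 0 (0%) were called by edgeR (lowest adjusted p = 0.9999), 622 (3.75%) had an unadjusted p under 0.05, and DESeq2 gave 687 with an unadjusted p under 0.05 and none past the adjusted threshold (lowest adjusted p = 0.702). The genes with the lowest p were Fam136a, Commd5, Sec61b and Atp5e with a more positive difference around cores labelled KO and Vpreb1, Npc1l1, Ifi202b and Aanat with a more negative one. Atp5e, a subunit of ATP synthase, had a log2 fold change of 1.43 with cores labelled KO and 0.86 with WT cores. Sec61b, a subunit of the translocon, was at 0.34 with cores labelled KO and -0.45 with WT cores. Ifi202b, an interferon-inducible gene, was at 1.14 with cores labelled KO and 5.47 with WT cores, with 39.3, 0.351, 0.514 and 9.09 CPM in the cores labelled KO, among which core 1 was the highest, and its value was 3.08 (edgeR adjusted p = 0.0304) without core 1 and 2.27 (edgeR adjusted p = 0.0125) with the title code as a block. These tests missed the threshold, which does not show that the compartment differences were equal.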

How the data were processed

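The authors deposited a table of estimated counts per gene, made with kallisto 0.46.1 against GRCm39 per the labels, and the values are whole numbers. The annotation release and the strand setting are not given in the sources used here. Libraries were ribosome-depleted, stranded total RNA. Columns were matched to samples by title, and gene names came from GENCODE M21 (names and lengths only, 25587 of 25700 IDs). From the counts, TMM factors, filterByExpr and the quasi-likelihood test of edgeR 4.0.16 (R 4.3.3) were computed on the 10 libraries, without block. Calls needed a Benjamini-Hochberg adjusted p under 0.05 and a log2 fold change beyond 0.5 (prior count 2). SE is the log2 fold change divided by the root of F. CPM were TMM-scaled. Exact permutation tests used all 210 assignments on log2(CPM + 1). The scripts were tested on simulated data.

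The compartment comparison and the gene lists were chosen with earlier results of these data known. Named genes were the 12 with the largest difference in each direction (called, at least 50 CPM in the higher compartment, no overlap, no unnamed models), the 6 with the lowest p in each direction, up to 6 per list, Il6, Scx, Col1a1, Col3a1, Tnmd, Mki67 and defining markers, and 4 in each direction by core label. Title codes paired 4 hydrogels with 4 cores, although no source says outright that a code stands for a mouse. Residual correlations of 0.42, 0.23, 0.24 and 0.32 were above 0.1 in every pair. Hydrogel 1 and core 1, which share no code, were above it too, at 0.14. Fits with the title code as a block are therefore given beside some of the results they change. Counts of other lists changed under the block too. Hydrogels 1 and 5 have no core of their code and carry no weight in the compartment difference of those fits. Alternatives were other scalings, filters and thresholds, DESeq2 1.42.0, a block by the first number in the title codes, fits on more groups, cores beside cell-free hydrogels as the core group, and leaving out each library. Some genes of the lists are not reported here. Ribosomal protein genes share reads with near-identical copies.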

Additional observations from a re-analysis of the deposited data

Results flagged for a closer look

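In 386 groups of 4 or 6 libraries, for 188 genes and several library measures, the highest or lowest library stood apart from its group in 31 cases. Of these cases, 23 were among hydrogels and 8 among cores. Chance gives about 1 in 20 groups for normally distributed values, a rate that need not hold for unlogged CPM of related genes.

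Hydrogel 5 held 14 of them. It was the high library for the tendon and matrix genes Tnmd (316 CPM), Col1a1 (21800 CPM), Col1a2 (26100 CPM), Col11a2 (21.4 CPM), Chad (5.77 CPM), Omd (45.6 CPM) and Mfap4 (11.4 CPM). It was also apart for Ryr3 (91.8 CPM), Nfasc (14.7 CPM), Eya1 (22 CPM), Penk (185 CPM), Cntfr (1.59 CPM), mt-Nd2 (163 CPM) and Sec61b (116 CPM). The same library had the lowest macrophage genes among hydrogels.

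Hydrogel 6 stood apart for Il6 (38.1 CPM), Adamts5 (290 CPM), Adamts1 (318 CPM), Bmp3 (36.5 CPM) and Fgf9 (1.96 CPM). Hydrogel 2 stood apart for Apod (174 CPM), Rps27l (63.3 CPM), Gbp4 (0.239 CPM) and Ifi202b (62.5 CPM).

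Among cores, core 4 stood apart for Mkx (226 CPM), Dcn (6520 CPM), Cdc20 (4.82 CPM) and Kif20a (17.1 CPM), and core 3 for Ankrd10 (67.3 CPM). Core 1 was the low library for Dpp4 (6.18 CPM) and Axin2 (6.2 CPM), and core 2 was apart for Mfap4 (37.4 CPM).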

How the results depend on the processing

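Of 188 named genes tested under 25 alternatives, 168 kept direction and call in every alternative that tested them (166 genes were tested with at least 10 counts in every library), 19 lost or gained the call in at least 1, and Cxcl14 (1.43) turned round with cores beside cell-free hydrogels. Many of them were named for a large difference or a low p in these same libraries, which favours kept calls. Genes called higher and lower numbered 3527 and 7284 without a filter, 970 and 2672 beyond 1 on the log2 scale, and 1912 and 2158 at 5 CPM or more (chosen after seeing the data). Another scaling gave 33% (library totals) to 43.3% (DESeq2's size factors) of calls higher, against 40.9%, and the upper quartile gave 35.3%. The replicate block by number gave 3446 higher and 4301 lower and the block by title code 3194 and 4267. Same-numbered samples had residual correlations of 0.14, -0.14, 0.08 and -0.014, each below those of the title code pairs. Leaving out 1 library gave 2499 to 3373 higher and 3591 to 4080 lower. By core label, 0 genes were called under 29 alternatives.

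Of 1120 list medians, 1094 moved by less than the larger SD among libraries of a compartment. That spread holds hydrogel 5, and leaving out 1 library can seldom move a median beyond it. Calls could change all the same. The tendon list counted as unmoved without hydrogel 5, although its lower calls went from 7 to 12. Medians that moved further are given next. Without a filter, medians were -0.44 (adipocyte), -2.69 (lymphocyte), -1.62 (skeletal muscle) and 0.42 (VEGF). With at least 10 counts they were 0.62 (lymphocyte), 1.19 (MHC class II), 0.45 (Schwann) and -1.74 (skeletal muscle). With the replicate block by number they were 0.47 (ATF4), -0.71 (circadian) and 0.5 (VEGF). With cores beside cell-free hydrogels they were 1.5 (ATF4), -0.33 (circadian), 0.71 (ribosomal), 0.28 (replication), 0.07 (fatty acid), 1.35 (glycolysis), 1.41 (hypoxia), 0.34 (immediate early), -0.9 (interferon) and -1.38 (skeletal muscle). Leaving out 1 library gave -0.29 to -0.11 (fatty acid), -0.79 to 0.88 (lymphocyte, 0.88 without hydrogel 5), 0.31 to 1.09 (MHC class II), -1.52 to -0.38 (skeletal muscle) and 0.21 to 0.47 (VEGF). The cause was not tested.

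Limits: 4 cores against 6 hydrogels leave 1 library with much weight, values near 0.1 CPM rest on about 3 counts, and the compartments differ in source tissue, genotype and culture at once. The 4 cores are also those whose RNA passed the study's limits on integrity and concentration.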

Other observations

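Further lists were described by counts alone. Genes of protein folding in the endoplasmic reticulum were higher in hydrogel for 9 of 25 and lower for none (median 0.42), and genes of the citric acid cycle for 9 of 20 and none (median 0.49). Genes that fold, process and cross-link collagen were higher for 8 of 28 and lower for 2 (median 0.36). Mechanotransduction genes were higher for 4 of 25 and lower for 3 (5 and 5 with the title code as a block). Feedback genes of STAT3 and the acute phase were higher for 3 of 29 and lower for 4, with 6 and 8 under the title code block. Immediate early genes, induced within minutes of a stimulus, were higher for 5 of 24 and lower for 5, with 9 and 4 under that block and 10 and 1 against cores beside cell-free hydrogels.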
